A study of Danio rerio with 7 samples.

Results

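The genes described here make cholesterol or set how much of it a cell makes and takes up: *hmgcra*, *hmgcrb*, *hmgcs1*, *sqlea*, *lss* and *dhcr7* encode enzymes of the pathway, *srebf2* and *insig1* its regulators, and *ldlra* a receptor for low-density lipoprotein (LDL). They were chosen by symbol, and 6 of the 9 were matched to a gene among the 33737 Ensembl gene IDs in the tables. *ldlra*, *lss*, *srebf2* and *insig1* were matched by symbol. *hmgcra* and *sqlea* were matched by gene name and by 9 and 4 neighbouring genes that they share with the zebrafish RefSeq annotation. *hmgcrb*, *hmgcs1* and *dhcr7* had no matching ID and were not analysed here. All 6 matched genes passed the filter on low counts.

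RNA was sequenced at 96 hpf from pools of embryonic zebrafish hearts, 1 pool per library. That the pools were hearts is stated by the paper, whereas the sample titles name only zebrafish embryos. The 4 *cora* libraries came from embryos homozygous for *cora* stl325 (*corazoncito*), and the 3 control libraries from their unaffected clutchmates; all embryos carried *Tg(cmlc2::gfp)*. The *cora* allele arose in an ENU mutagenesis screen and puts a premature stop codon into *taf5*, the gene of a TFIID subunit; TFIID is a general factor of transcription initiation. The transgene drives green fluorescent protein from the promoter of a cardiac myosin light chain gene. The labels give the genotypes as KO and WT, but unaffected clutchmates can include heterozygous carriers, and 1 control library has no replicate number.

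In vertebrate cells cholesterol is built from acetyl-CoA, first through the mevalonate arm, which HMG-CoA reductase controls, and then through squalene and the sterol arm. When sterols in the endoplasmic reticulum run low, the escort protein SCAP carries SREBP-2, the product of *srebf2*, to the Golgi, where it is cut and released to activate the genes of the pathway and the LDL receptor. INSIG proteins hold SCAP back when sterols are plentiful, and *INSIG1* is itself a target of SREBP in mammals. In vertebrate embryos liver and yolk supply lipoprotein cholesterol to other tissues, and heart muscle is not known as a main site of its synthesis.

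Libraries held between 21474488 and 32037220 reads counted on genes. The 4 *cora* libraries had *taf5* at 1.97, 3.10, 3.70 and 4.56 normalized CPM (CPM, the counts divided by the scaled library size and set to a common total), against 8.83, 5.10 and 5.27 in controls 1, 3 and the unnumbered control. Each *cora* library was below each control, with a log2 fold change of -0.94 ± 0.38 (SE) that did not pass edgeR's quasi-likelihood test after Benjamini-Hochberg adjustment (adjusted p = 0.232). Its exons share 11 bases with *atp5md* on the opposite strand. Control 1 stood apart, with 33.7% of its reads on mitochondrially encoded genes, against 16.8% to 21.8% in the other 6 libraries. The summed level of 12 cardiomyocyte markers was 407 to 2326 normalized CPM in *cora* hearts and 349 to 4163 in controls. Control 1 had the lowest of these sums (349) and control 3 the highest (4163). Each of these markers was detected in every library and had a negative log2 fold change (median -0.85). Each was also highest in control 3 and overlapped between the groups, so the shared sign does not place the *cora* libraries below all controls. Of the 12, 0 were called, against 1.97% of all genes tested. The sums were below those of 10 epidermis markers, at 20938 to 31247 in *cora* hearts and 10787 to 37559 in controls, highest in control 1. Most of each epidermis sum was 1 keratin, *krt4*, at 13754 to 23325 in *cora* hearts and 7143 to 25425 in controls. Sums of different marker lists therefore do not measure the relative content of the tissues. Nothing in the labels says whether the pools came from separate clutches, so p-values measure only the spread between these pools.

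In *cora* hearts 5 of the 6 genes had a positive log2 fold change, between 0.60 and 1.49, and *ldlra* was at -0.06. Over all genes tested 47.8% had a positive log2 fold change. None of the 6 passed the test at an adjusted p under 0.05, so 0 of 6 were called by edgeR's quasi-likelihood test. Over all 21632 genes tested 1.97% were called, 1.11% higher and 0.86% lower in *cora* hearts. At an unadjusted p under 0.05, 4 of the 6 were higher (*hmgcra*, *sqlea*, *lss* and *insig1*), against 9.13% of all genes, and 0 of 6 were lower, against 8.61%. Each *cora* library lay above each control for 2 of the 6 (*sqlea* and *insig1*), an order found for 9.01% of all genes, and the reverse order, found for 8.73%, for 0 of 6. The median log2 fold change was 0.93 over the 6 genes and -0.03 over all genes tested. Of the other tests, limma's voom called 0 of 6, where it called 1.79% of all genes, DESeq2 called 1 (*insig1*), where it called 8.27%, and voom with sample quality weights called 1 (*sqlea*), where it called 14.4%.

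**Figure D1:**
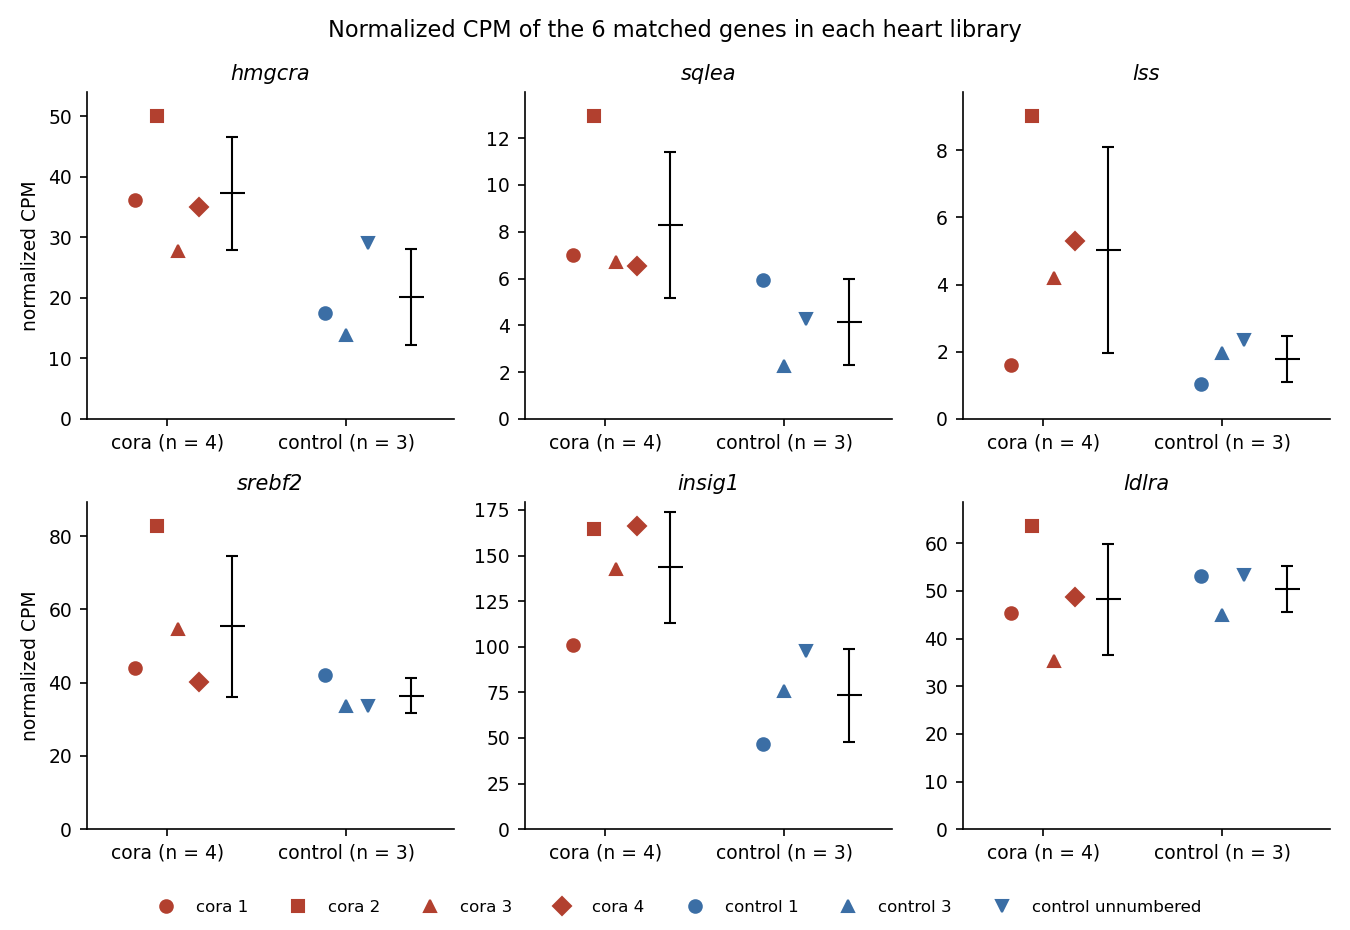
Normalized CPM (y axes, each starting at 0) of the 6 matched genes, with 1 point per heart library, *cora* in red on the left and control in blue on the right; the bar beside each group is its mean ± SD. *sqlea* and *insig1* are the genes whose *cora* points all lie above the control points, and *cora* library 2 is the highest library for every gene but *insig1*.

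*hmgcra* (ENSDARG00000052734, chromosome 5, 52658957 to 52678922, Zv9 build, minus strand) encodes HMG-CoA reductase, the rate-controlling enzyme of the mevalonate arm. Its normalized CPM was 36.2, 50.0, 27.8 and 35.0 in *cora* libraries 1, 2, 3 and 4, against 17.5, 13.9 and 29.0 in controls 1, 3 and the unnumbered control. The groups overlapped only through *cora* library 3, which was just below the unnumbered control, the highest of the controls. The means were 37.2 ± 9.28 (SD, n = 4) in *cora* hearts and 20.1 ± 7.90 (SD, n = 3) in controls. The fold was 1.85 (95% interval 1.15 to 2.99), and the log2 fold change of 0.89 ± 0.31 (SE) had an adjusted p of 0.173 by edgeR's quasi-likelihood test.

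*sqlea* (ENSDARG00000079946, chromosome 16, 46192807 to 46205093, minus strand) encodes a squalene epoxidase, which adds oxygen to squalene at the start of the sterol arm. Its level was 6.99, 12.9, 6.70 and 6.53 normalized CPM in *cora* libraries 1 to 4 and 5.94, 2.28 and 4.25 in controls 1, 3 and the unnumbered control. *cora* library 2 stood well above the other 3, which were close to each other and only slightly above control 1. The log2 fold change was 1.00 ± 0.41 (SE), a 2.00-fold difference (95% interval 1.05 to 3.80), with an adjusted p of 0.246 by edgeR's test. *sqleb*, the other squalene epoxidase gene (ENSDARG00000063319, chromosome 19), was at a log2 fold change of 0.32 ± 0.72, and reads of the paralogues could have been shared, since the handling of reads with several matches is not given.

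*lss* (ENSDARG00000061274, chromosome 9, 39534089 to 39552700, plus strand) encodes lanosterol synthase, which closes the squalene chain into the first sterol. Its normalized CPM was 1.59, 9.01, 4.20 and 5.30 in *cora* libraries 1 to 4, against 1.03, 1.97 and 2.36 in controls 1, 3 and the unnumbered control. These values came from 38 to 241 reads per *cora* library and 24 to 72 per control. *cora* library 1 lay within the control range, whereas the other 3 *cora* libraries lay above it. *lss* had the largest log2 fold change of the 6 genes, 1.49 ± 0.58 (SE), and also the widest interval (1.13-fold to 6.93-fold); its adjusted p by edgeR's test was 0.224.

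*srebf2* (ENSDARG00000063438, chromosome 3, 1880241 to 1904031, plus strand) encodes the SREBP-2 transcription factor. The *cora* libraries 1 to 4 had 44.0, 82.7, 54.6 and 40.3 normalized CPM, against 42.0, 33.6 and 33.7 in controls 1, 3 and the unnumbered control. Only *cora* libraries 2 and 3 were clearly above the controls, and *cora* library 4 was below control 1. The log2 fold change of 0.60 ± 0.28 (SE), 1.52-fold with a 95% interval of 0.987 to 2.34, had an unadjusted p of 0.0561 and an adjusted p of 0.297 by edgeR's test.

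*insig1* (ENSDARG00000010658, chromosome 7, 43738101 to 43744400, minus strand) encodes the endoplasmic reticulum protein that retains SCAP and, in mammals, brings HMG-CoA reductase to degradation. The *cora* libraries had 101, 165, 142 and 166 normalized CPM and controls 1, 3 and the unnumbered control had 46.8, 75.5 and 97.6. All *cora* libraries were above all controls, but *cora* library 1 exceeded the unnumbered control by little. The means were 143 ± 30.4 (SD, n = 4) in *cora* hearts and 73.3 ± 25.5 (SD, n = 3) in controls. Of the 6 genes *insig1* had the smallest p, 0.0100 before and 0.136 after adjustment by edgeR's test, at a log2 fold change of 0.97 ± 0.30 (SE) and a fold of 1.96 (95% interval 1.23 to 3.13). With DESeq2 its adjusted p was 0.0390, and over all alternatives it ranged from 0.0390 to 0.384.

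*ldlra* (ENSDARG00000029476, chromosome 3, 19121207 to 19145587, plus strand) encodes an LDL receptor, which brings lipoprotein cholesterol into the cell and is a target of SREBP-2 in mammals. Its level was 45.4, 63.5, 35.3 and 48.7 normalized CPM in *cora* libraries 1 to 4, and 53.1, 44.9 and 53.3 in controls 1, 3 and the unnumbered control. The control values lay inside the range of the *cora* values, whose highest and lowest were libraries 2 and 3. The log2 fold change was -0.06 ± 0.23 (SE, adjusted p = 0.922 by edgeR's test). Its 95% interval of 0.668-fold to 1.37-fold leaves room for a change within those bounds in either direction. The upper bound was below the fold of each other matched gene, the lowest of which was 1.52 for *srebf2*. The intervals of those genes overlapped that of *ldlra*, and the difference between genes was not tested.

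Set against exon length, as normalized CPM per kilobase of exon (normalized RPKM), *insig1* was the most abundant of the 6 genes in both groups, at 44.3 ± 9.39 in *cora* hearts and 22.6 ± 7.87 in controls (SD). *srebf2*, the second gene in *cora* hearts, was at 12.6 ± 4.37 there and at 8.31 ± 1.1 in controls. In *cora* hearts *hmgcra* (9.56 ± 2.38) and *ldlra* (9.54 ± 2.31) came next. Within libraries, *srebf2* was above *hmgcra* in each *cora* library, and above *ldlra* in all but *cora* library 4. In controls *ldlra* (9.98 ± 0.942) was the second gene, close to *srebf2*, and *hmgcra* was below both at 5.16 ± 2.03. *sqlea* was at 3.96 ± 1.48 in *cora* hearts and 1.99 ± 0.877 in controls, and *lss* was the lowest at 1.96 ± 1.2 in *cora* hearts and 0.697 ± 0.265 in controls.

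The wider pathway was read from a list of 24 symbols of enzymes of both arms, of which 15 were tested. Of these, 14 had a positive log2 fold change, against 47.8% of all genes tested. Their median was 0.80, and 0 of 15 passed edgeR's test, against 1.97% of all genes tested. At an unadjusted p under 0.05, 8 were higher and 0 lower, against 9.13% and 8.61% of all genes. DESeq2 called 2 of the 15 (*msmo1* and *ebp*), against 8.27% of all genes, voom 0, against 1.79%, and voom with sample quality weights 3 (*msmo1*, *fdps* and *sqlea*), against 14.4%. In the mevalonate arm all 6 tested genes were positive: besides *hmgcra*, these were *acat2* (0.72), *mvk* (0.85), *pmvk* (0.46, with 422 exon bases shared with *EAF1* on the opposite strand), *idi1* (0.75) and *fdps* (0.55). *fdps*, the synthase that makes the chain from which both squalene and the prenyl groups of proteins derive, was at 73.4, 88.6, 93.8 and 99.2 normalized CPM in *cora* libraries 1 to 4, against 68.2, 52.1 and 61.6 in controls 1, 3 and the unnumbered control. Its *cora* and control libraries did not overlap (adjusted p = 0.198 by edgeR's test), and 56 of its exon bases are shared with an unnamed gene on the same strand.

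In the sterol arm 8 of 9 tested genes were positive, against 47.8% of all genes tested. For 5 of them each *cora* library was above each control, an order found for 9.01% of all genes. The gene nearest to the threshold was *msmo1* (ENSDARG00000055876), which encodes the oxidase that removes methyl groups from early sterols. Its levels were 42.1, 87.8, 60.2 and 52.1 normalized CPM in *cora* libraries 1 to 4, against 25.9, 26.2 and 26.9 in controls 1, 3 and the unnumbered control. The 3 controls were nearly equal and the lowest *cora* library was well above them, at a log2 fold change of 1.2 ± 0.27 (SE; adjusted p = 0.0563 by edgeR's test). *msmo1* lies on chromosome 1 (19695811 to 19710076), as does *taf5* (49921680 to 49938546), and was the only tested enzyme that does; none of the 6 matched genes lies there.

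Of the other tested genes of the sterol arm, *lbr* was the only one below 0. *ebp*, the sterol isomerase, was at 11.1, 26.1, 25.7 and 8.75 normalized CPM in *cora* libraries 1 to 4 and at 7.41, 8.44 and 6.18 in controls 1, 3 and the unnumbered control (log2 fold change 1.29 ± 0.42 SE, adjusted p = 0.155 by edgeR's test). *sc5d*, a sterol desaturase, had 29.2, 44.2, 24.8 and 19.3 in the same *cora* libraries against 13.8, 18.8 and 18.0 (0.80 ± 0.30). Both were above all controls in all *cora* libraries, *ebp* mainly in libraries 2 and 3. *hsd17b7*, a ketosteroid reductase, was at 1.51 ± 0.62 from 18 to 56 reads per *cora* library and 9 to 16 per control. *tm7sf2* and *lbr*, both of which encode sterol reductases, were at 0.42 and -0.32.

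**Figure D2:**
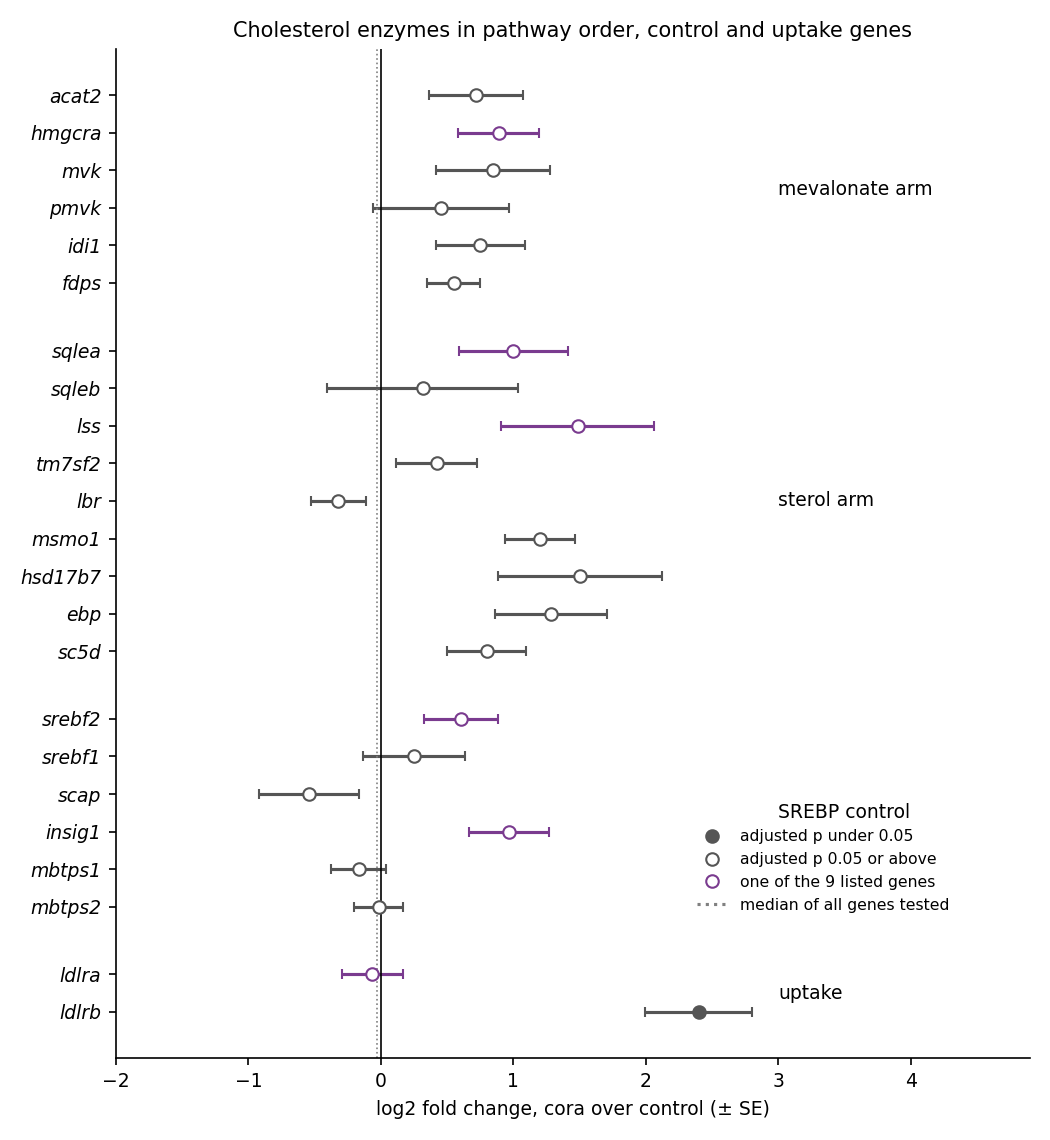
Log2 fold change of *cora* over control (x axis, bars are ± SE) for the tested enzymes in the order of the pathway, the main SREBP control genes and 2 uptake genes; filled points passed an adjusted p under 0.05, purple marks the listed genes and the dotted line is the median of all genes tested (-0.03). All 6 genes of the mevalonate arm and 8 of 9 of the sterol arm lie to the right of 0, *lbr* to its left, and *ldlrb* is the filled point.

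Among the SREBP control genes 10 of 12 listed symbols were tested and 0 were called, against 1.97% of all genes tested. Their median was 0.18. *insig1* and *srebf2* had the 2 highest values of that list. *scap*, the escort that *insig1* acts on, had the lowest, -0.54 ± 0.38 (SE; adjusted p = 0.506 by edgeR's test), and its *cora* libraries (3.06, 3.78, 3.51 and 2.14 normalized CPM) overlapped the controls (6.50, 4.19 and 2.98). The 2 Golgi proteases that release SREBP had values near 0, *mbtps1* at -0.17 ± 0.21 and *mbtps2* at -0.02 ± 0.19. *srebf1*, the paralogue better known for fatty acid synthesis, was at 0.25 ± 0.38.

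Of 67 genes tested in all pathway lists 1 rose and 0 fell, a share near that over all genes (1.11% called higher and 0.86% lower). The gene that rose, *ldlrb* (ENSDARG00000026759, chromosome 6, 38251 to 54470), is the second LDL receptor gene and was at 4.02, 9.27, 6.33 and 5.42 normalized CPM in *cora* libraries 1 to 4, against 1.21, 1.4 and 0.949 in controls 1, 3 and the unnumbered control. Each *cora* library was far above each control, at a log2 fold change of 2.40 ± 0.40 (SE; adjusted p = 0.0287 by edgeR's test). Its exons share 1233 bases with *AP1M2* on the same strand, which was at 0.50 ± 0.26 (adjusted p = 0.362 by edgeR's test), and part of the reads cannot be assigned to either gene with certainty. Per length *ldlrb* remained the lesser receptor gene, at 1.56 ± 0.552 normalized RPKM in *cora* hearts and 0.294 ± 0.0557 in controls, next to 9.54 and 9.98 for *ldlra*, and reads of the pair could also have been shared. The call was lost without control 3, the unnumbered control or *cora* library 1, 2 or 3. There the log2 fold change of *ldlrb* stayed between 2.15 and 2.56, with adjusted p of 0.0525 to 0.142 by edgeR's test. Over all genes those fits called 34 to 208, against 426 with all libraries. The fits without control 1 and without *cora* library 4 kept the call, and called 1207 and 635 genes.

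**Figure D3:**
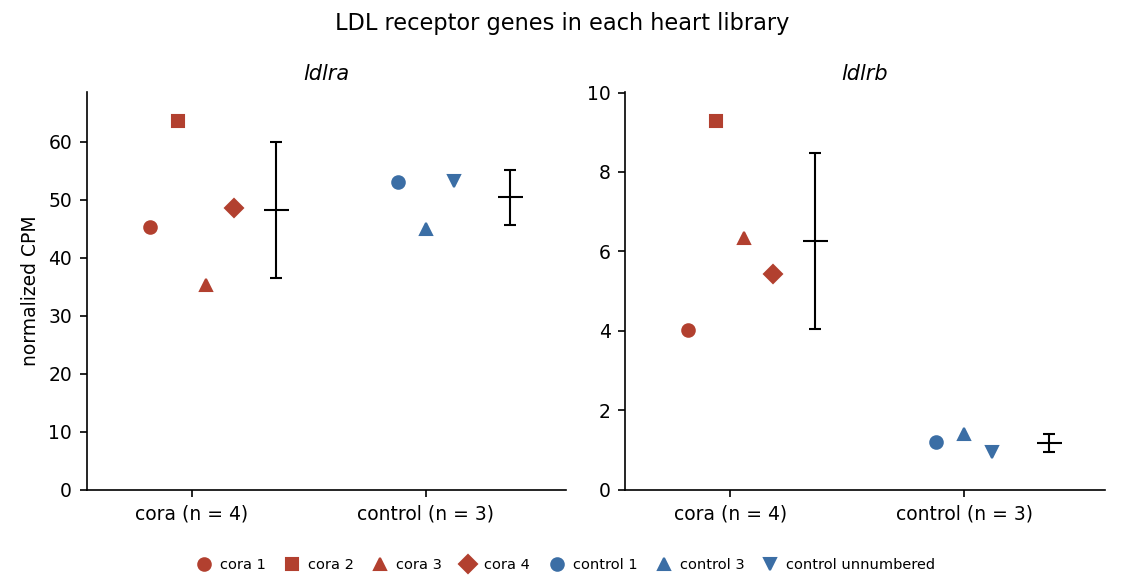
Normalized CPM (y axes, each starting at 0) of *ldlra* and *ldlrb*, with 1 point per heart library, *cora* in red on the left and control in blue on the right, and the mean ± SD beside each group. *ldlra* overlaps between the groups, while *ldlrb* lies between 4.02 and 9.27 in *cora* libraries and at most at 1.4 in controls.

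No other gene of the pathway lists passed the test. Cellular uptake and lysosomal export of sterol had a median of -0.05 over 10 tested IDs, with *lipa*, the lysosomal lipase that frees cholesterol from its esters, at -0.97 ± 0.44 and *npc1*, which exports it, at 0.29 ± 0.19. Efflux, storage and breakdown had a median of -0.13 over 9 genes. There *soat2*, which esterifies cholesterol, was lowest at -1.50 ± 0.90 and *ch25h*, which makes an oxysterol, highest at 1.33 ± 0.60. *cyp7a1*, the rate-limiting enzyme of bile acid synthesis, was at 86.7, 133, 37.0 and 30.4 normalized CPM in *cora* libraries 1 to 4, against 119, 168 and 237 in controls 1, 3 and the unnumbered control (-1.28 ± 0.50). Only *cora* library 2 reached into the control range.

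Fatty acid synthesis, the pathway that SREBP-1 governs, had a median of -0.06 over 14 genes, between *me1* (-1.49 ± 0.67) and *scd* (2.30 ± 0.66; adjusted p = 0.117 by edgeR's test). *scd*, a fatty acid desaturase gene, was at 2.39, 3.59, 7.81 and 3.98 normalized CPM in *cora* libraries 1 to 4, all above the 0.387, 0.485 and 1.80 of controls 1, 3 and the unnumbered control. The branch that leaves the mevalonate arm for prenyl groups, dolichol and ubiquinone had a median of 0.10 over 10 genes, between *fntb* (-0.45 ± 0.20) and *ggps1* (0.86 ± 0.31). The medians of the enzymes of the 2 cholesterol arms, 0.73 and 1.00, were the highest of the pathway lists, though no list was tested as a whole.

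*cora* library 2 had the highest mean level over the 15 enzymes. It was the highest of the 7 libraries for 10 of the 15 enzymes, and its mean level over them, on the log2 scale and centred on each gene's mean, was 0.65, next to -0.02, 0.43 and 0.23 in *cora* libraries 1, 3 and 4. Controls 1, 3 and the unnumbered control were at -0.56, -0.50 and -0.23. Thus each *cora* library was above each control, but *cora* library 1 stood nearer to the unnumbered control than to *cora* library 2. Without *cora* library 2, the log2 fold changes of *lss*, *sqlea* and *srebf2* were 1.04, 0.70 and 0.35. At an unadjusted p under 0.05 by edgeR's test, 2 of the 6 genes and 4 of the 15 enzymes were then higher and 0 lower. Of all 21360 genes in that fit, 1651 were higher and 1636 lower (15.4% in either direction). Without control 3, 1 of the 6 genes and 3 of the 15 enzymes were higher and 0 lower. Of all 22054 genes in that fit, 1478 were higher and 1321 lower (12.7% in either direction). The median of the enzymes was 0.80 with all libraries and 0.65 without *cora* library 2, with 14 of 15 positive in each. It was 0.69 without control 1 and 0.71 without control 3.

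**Figure D4:**
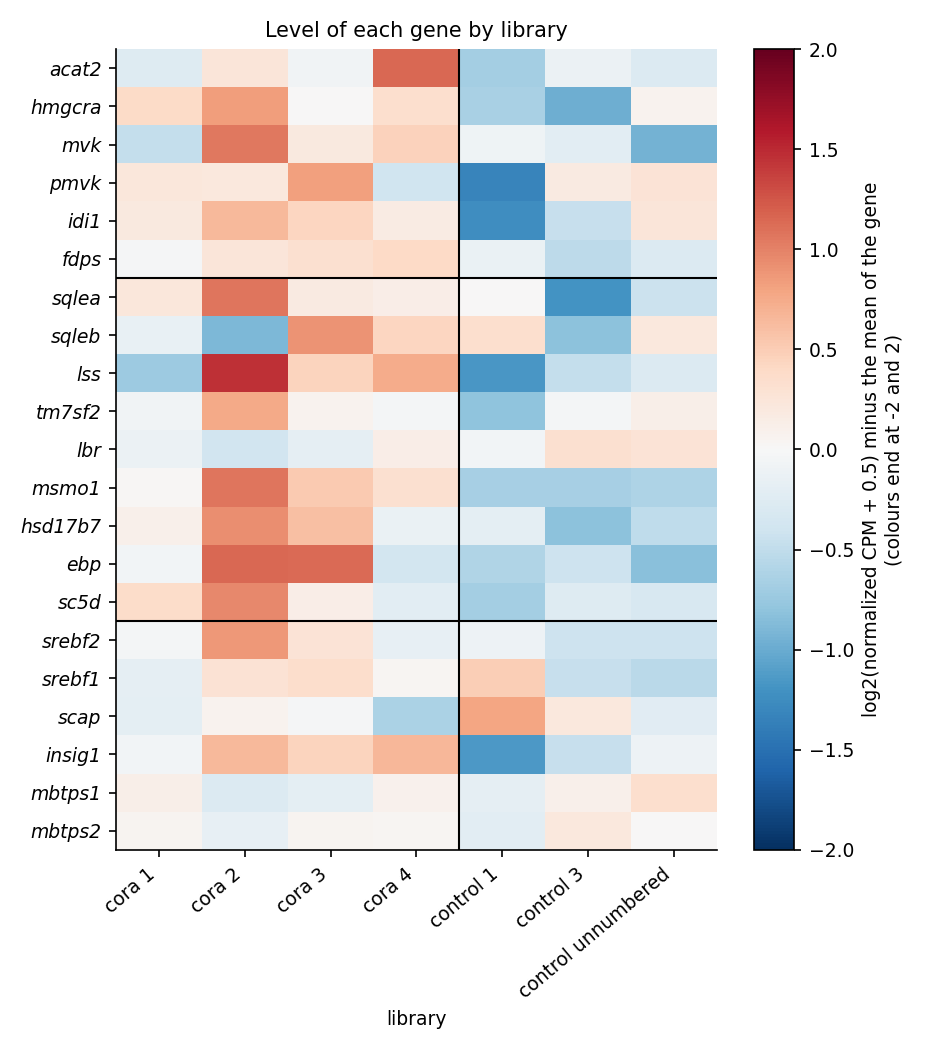
Level of each tested enzyme and of the main SREBP control genes (y axis, in pathway order, black lines between the mevalonate arm, the sterol arm and SREBP control) in each library (x axis, *cora* left of the vertical line and control right of it), as log2(normalized CPM + 0.5) minus the mean of the gene; red is above and blue below that mean. *cora* library 2 is the reddest column, with *sqleb*, *lbr* and both Golgi proteases below their means there. Control 1 is the bluest for *idi1*, *pmvk*, *lss* and *insig1*, and is also the lowest library for others, among them *acat2*, *tm7sf2* and *sc5d*.

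RNA of markers of other tissues was present at levels that differed between the pools. Liver, a main site of cholesterol synthesis, had 16 markers with summed levels of 3948, 5577, 12190 and 30455 normalized CPM in *cora* libraries 1 to 4, against 9081, 27385 and 29249 in controls 1, 3 and the unnumbered control. The liver sum was second lowest in *cora* library 2 and highest in *cora* library 4. None of the 16 liver markers was at 0 in any library, and 0 of 16 were called. For this and the marker lists below, the shares over all genes tested were 1.11% called higher and 0.86% called lower. Exocrine pancreas markers were lower in all *cora* libraries, at 711 to 1693, against 6240 to 23198 in controls, with 9 of 9 called lower and none at 0. Of 7 glia markers 3 were called lower, with sums of 488 to 768 in *cora* hearts and 1478 to 3136 in controls. The 5 intestine markers were all below 0 on the log2 scale of the fold change, with 0 of 5 called, none at 0 in any library and sums of 346 to 1010 in *cora* hearts and 1590 to 2032 in controls. In the list of yolk markers 4 were tested and *apoeb* was called higher; it made up nearly all of the sums, which were 3477 to 6624 in *cora* hearts and 1572 to 1710 in controls. *apobb.2* (-2.09 ± 0.87) and *mttp* (-0.70 ± 0.37) of that list were below 0, and *vtg2*, *vtg3*, *vtg4* and *vtg5* were at 0 in at least 1 library. Of 10 epidermis markers 7 were above 0 and 1 (*cldne*) was called higher, while 3 were below 0, among them *krt91* (-1.37 ± 0.54) and *krt5* (-1.11 ± 0.61). The part of these tissues in the levels of the cholesterol genes was not tested, and in pooled hearts fewer cells of a type and less RNA per cell cannot be told apart.

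Leaving out each library in turn kept the sign of *hmgcra* (0.69 to 1.25), *sqlea* (0.70 to 1.36), *lss* (1.04 to 1.78), *srebf2* (0.35 to 0.73) and *insig1* (0.74 to 1.23) in all 7 fits, but brought none of them past the threshold. Over all genes those fits called between 34 (without the unnumbered control) and 1207 (without control 1). *ldlra* moved between -0.22 and 0.06 and changed sign without *cora* library 3. The median of the 15 enzymes stayed between 0.65 and 0.89, with 13 or 14 of them positive.

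**Figure D5:**
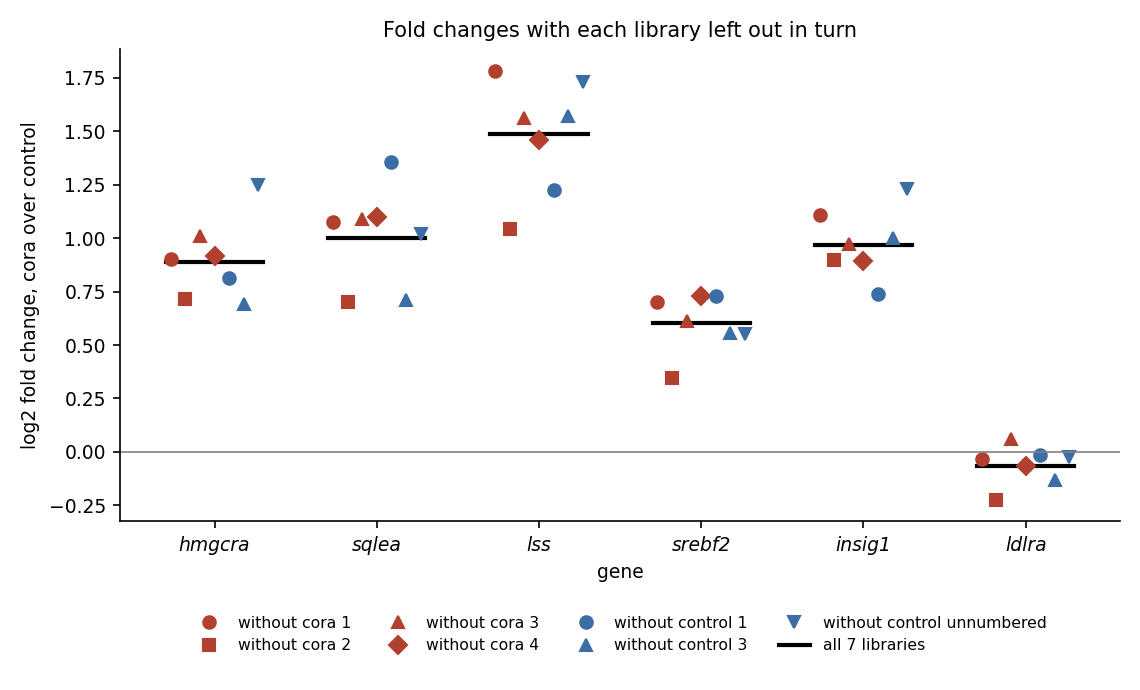
Log2 fold change of *cora* over control (y axis) of the 6 matched genes with all 7 libraries (black bar) and after removal of single libraries (points; red where a *cora* library and blue where a control is left out). Leaving out *cora* library 2 gives the lowest value for *lss*, *srebf2*, *sqlea* and *ldlra*, and the lowest value of the 5 positive genes is 0.35, for *srebf2*.

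Outside the pathway lists, the genes whose levels most resembled the mean profile of *hmgcra*, *sqlea* and *lss* over the 7 libraries were *afg3l1*, *ZFYVE28*, *ZNF703*, *RAPGEF6* and *crb2b*. Likeness was the root mean square difference of centred log2 CPM, between 0.24 and 0.26 for these 5, among 11928 genes. *afg3l1*, named after a mitochondrial protease family, was at 5.48, 8.56, 6.24 and 5.54 normalized CPM in *cora* libraries 1 to 4, against 2.63, 2.73 and 3.27 in controls 1, 3 and the unnumbered control. It was highest in *cora* library 2 and lowest in control 1, whereas the mean profile of the 3 genes was highest in *cora* library 2 and lowest in control 3. Since 7 libraries in 2 groups give few distinct profiles, such a ranking only describes these pools.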

How the data were processed

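RNA sequencing of pooled zebrafish hearts at 96 hpf gave 1 table per library, in 4 *cora* and 3 control libraries. The counts deposited by the authors are whole reads per Ensembl gene on the Zv9 build, not normalized. The authors also deposited CPM, the count scaled to a common library total, and RPKM, the deposited CPM divided by exon length in kilobases. The submitters' processing notes name STAR 2.0.4b, Subread, featureCounts 1.4.5, edgeR and limma; strand setting and handling of reads with several matches are not given in the sources used here. Only the counts were used.

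The test was edgeR 4.0.16 under R 4.3.3: TMM scaling, filterByExpr by group (21632 genes kept), glmQLFit and glmQLFTest without covariates, two-sided, and Benjamini-Hochberg adjustment over all genes tested at 0.05. Log2 fold changes use a prior count of 0.125, SEs come from the quasi-likelihood F statistic, and normalized CPM and RPKM use the TMM-scaled library size. The procedure was tested on simulated counts.

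Symbols matched 21939 of 33737 IDs; paralogues named alike were placed by at least 2 shared neighbours in the GRCz12tu RefSeq order. Named are the 9 listed genes, *taf5*, the called genes and the lowest and highest gene of each pathway list, and the 5 closest profiles. Further enzymes, SREBP control genes, *AP1M2*, *npc1*, *cyp7a1* and marker genes were named after their values were seen. Some genes were left out of the lists and are not reported here. The genes and lists were chosen with earlier results of these data known. Alternatives were RLE, upper quartile or library-size scaling, DESeq2 1.42.0, limma 3.58.1 voom with and without sample quality weights, 2 other filters, each library left out and a replicate block. All pairs of replicate libraries differed beyond sampling noise. A planned search for promoter motifs was not run, as no sequence was used here.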

Additional observations from a re-analysis of the deposited data

Results flagged for a closer look

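In each of 38 named genes the highest and lowest of the 4 *cora* libraries were compared with their neighbours on the log2 scale, as the gap to the nearest library divided by the whole range. *sqlea* was far higher in *cora* library 2 than in the other 3 (ratio 0.901), as was *tm7sf2* (0.831), and *mbtps2* was lower there (0.901). Chance alone flags about 1 in 20 such groups, so 3 of 38 genes is near that rate. All 3 flags fell on the same library, which was also the highest for 10 of 15 enzymes. The part of tissue content in this was not tested. That library had the second lowest liver marker sum. Among *cora* libraries it had the highest sums of epidermis (31247 normalized CPM) and intestine markers (1010). Its sums of cardiomyocyte (407), neuron, glia, erythrocyte, exocrine pancreas and yolk markers were the lowest of the *cora* libraries.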

How the results depend on the processing

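Over all genes, 426 were called, against 1789 with DESeq2, 3113 with voom and sample quality weights, and 34 to 1207 when 1 library was left out (34 without the unnumbered control, 1207 without control 1). Of the 6 matched genes 0 were called, against 1 with DESeq2 (*insig1*) and 1 with voom and sample quality weights (*sqlea*, adjusted p = 0.0445, range over its alternatives 0.0445 to 0.697). Leaving out 1 library gave 0 calls throughout, with 1 to 5 of the 6 at an unadjusted p under 0.05 by edgeR's test. Over all genes those fits had between 2675 of 22061 (without the unnumbered control) and 5179 of 22120 (without control 1) at that threshold. Of 67 pathway genes 1 was called, against 5 with DESeq2, 13 with voom and sample quality weights and 0 to 2 with 1 library left out. With at least 10 counts in every library 2 of 64 were called, where 531 of all 18164 genes were. The numbers shared by libraries 1 and 3 were not treated as pairs in the main test. The correlation of deviations was 0.058 and 0.032, which cannot show whether such pools shared a clutch. With the replicate block on these 4 libraries, edgeR called 0 of 21404 genes, 0 of the pathway genes and 0 of the 6. At an unadjusted p under 0.05 in that fit, 1000 of the 21404 genes were higher and 1101 lower. Of the 67 pathway genes 7 were higher and 4 lower, and of the 6 matched genes 2 were higher and 0 lower.

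3 genes near 0 changed sign. *ldlra* was at 0.014 with library size alone and ranged from -0.22 to 0.061 with 1 library left out (positive without *cora* library 3). *sqleb* ranged from -0.14 to 0.64, negative without control 3 (-0.067) or *cora* library 3. *mbtps2* was at 0.032 with library size alone and 0.057 with the replicate block, and ranged from -0.11 to 0.11, positive without control 3 or *cora* library 2. *hmgcra*, *sqlea*, *lss*, *srebf2* and *insig1* kept a positive sign under all alternatives. *msmo1* passed with DESeq2, with voom and sample quality weights and with at least 10 counts in every library (adjusted p = 0.0481). Where only 4 libraries remain, or 1 is left out, fewer samples enter the test. Counts were low for *hsd17b7* (9 to 56 reads per library), *sqleb* (10 to 55), *scd* in controls (9 to 55) and *soat2* in *cora* library 1 (7); counting error and the spread between pools were not separated.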
